A study of Mus musculus with 6 samples.

Results

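Among the Gli3 binding sites of embryonic mouse cortex, 618 lay deep inside long protein-coding genes. They were chosen by position. The midpoint had to be more than 2 kb from the transcription start site (TSS) of every annotated transcript, inside the body of a protein-coding gene, and more than 20 kb from the nearest TSS of a protein-coding transcript. These deep sites were 15.3% (95% Wilson interval 14.3 to 16.5%) of the 4028 sites on chromosomes 1 to 19 and came from a list of 4114 sites in all, and no measured strength was used to choose them. They lay in 467 coding genes. The list came from chromatin immunoprecipitation followed by sequencing (ChIP-seq) of wild-type (wt) cerebral cortex at embryonic day 15 (E15), with 3 Gli3 antibody samples and 3 input DNA samples as the background. No strain and no treatment other than the ChIP itself is named for them. The authors joined the Gli3 samples into a single list with an irreproducible discovery rate (IDR) analysis, which keeps peaks that rank alike in replicates. A site is therefore a position without a height, a depth or a value per embryo. Tests below compare counts of sites, cover counting error only, and treat sites that share a gene as separate. A list of positions cannot be checked against cortical marker genes.

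Gli3 is a zinc finger transcription factor that acts at the end of the Sonic hedgehog (Shh) pathway. Without Shh it is cleaved to a repressor, and in the cortex this repressor form holds back Shh target genes in radial glial cells, the neural stem cells of the cortex. GLI factors bind a short sequence with the consensus GACCACCCA, called the GLI core here. Regulatory sequence that lies in introns can act on the host gene or on a more distant promoter. Which gene a site acts on cannot be read from its position.

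The sites that held 2 GLI cores show how the core appears deep inside genes, so their cores are printed first. All sequences are 5′ to 3′ on the strand of the core, in lower case with the core in capitals, from the GRCm38 (mm10) sequence of RefSeq. At *Igsf21*, which encodes an immunoglobulin superfamily adhesion protein of inhibitory synapses, the 2 cores lay 82 bp apart in the same orientation on either side of a CA repeat. Of the 33 bases around each core, 25 were identical in the 2 copies.
Igsf21 (chr4:140030487-140030601, minus strand): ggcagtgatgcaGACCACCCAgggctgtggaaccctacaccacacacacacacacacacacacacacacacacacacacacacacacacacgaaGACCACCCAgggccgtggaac
The other 5 pairs were 290 to 6501 bp apart. The pairs at *Irs1*, which encodes an adaptor of the insulin receptor, at *Prkar1b*, a regulatory subunit of protein kinase A, and at *Slc25a13*, a mitochondrial carrier, were in the same orientation. Those at *Phactr1*, an actin regulator, and at *Bahcc1* were in opposite orientation.
Irs1, first core (chr1:82262200-82262232, minus strand): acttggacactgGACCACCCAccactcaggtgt
Irs1, second core (chr1:82262490-82262522, minus strand): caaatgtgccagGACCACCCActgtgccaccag
Prkar1b, first core (chr5:139078023-139078055, plus strand): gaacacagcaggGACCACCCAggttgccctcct
Prkar1b, second core (chr5:139078350-139078382, plus strand): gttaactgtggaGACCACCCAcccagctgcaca
Phactr1, first core (chr13:42977115-42977147, plus strand): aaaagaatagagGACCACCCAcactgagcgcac
Phactr1, second core (chr13:42977725-42977757, minus strand): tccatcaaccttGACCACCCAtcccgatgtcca
Slc25a13, first core (chr6:6159675-6159707, plus strand): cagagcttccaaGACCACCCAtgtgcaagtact
Slc25a13, second core (chr6:6166176-6166208, plus strand): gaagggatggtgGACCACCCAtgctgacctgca
Bahcc1, first core (chr11:120262375-120262407, plus strand): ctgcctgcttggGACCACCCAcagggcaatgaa
Bahcc1, second core (chr11:120266104-120266136, minus strand): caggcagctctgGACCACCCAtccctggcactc

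The next set holds single cores in introns of genes for neural transcription factors, axon guidance, glutamate and GABA receptors and chromatin, chosen from the gene lists described further on. They are shown so that the bases beside the core can be compared across different host genes.
Nfia (chr4:97840035-97840067, plus strand): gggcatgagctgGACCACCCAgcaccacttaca
Meis2 (chr2:115984054-115984086, plus strand): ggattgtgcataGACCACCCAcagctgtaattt
Pbx3 (chr2:34234516-34234548, plus strand): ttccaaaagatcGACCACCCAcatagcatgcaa
Camta1 (chr4:151164727-151164759, minus strand): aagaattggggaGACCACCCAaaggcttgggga
Ntn1 (chr11:68273113-68273145, plus strand): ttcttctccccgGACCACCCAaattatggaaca
Dscam (chr16:96886013-96886045, minus strand): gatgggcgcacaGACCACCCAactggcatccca
Plxna4 (chr6:32261634-32261666, minus strand): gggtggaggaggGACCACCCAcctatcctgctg
Ntng1 (chr3:110011388-110011420, plus strand): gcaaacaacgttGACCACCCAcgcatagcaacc
Grik1 (chr16:87959272-87959304, minus strand): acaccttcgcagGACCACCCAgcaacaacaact
Gabbr2 (chr4:46898150-46898182, plus strand): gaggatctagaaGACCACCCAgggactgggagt
Dnmt3a (chr12:3832926-3832958, minus strand): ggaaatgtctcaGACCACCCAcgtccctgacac
Gse1 (chr8:120370381-120370413, minus strand): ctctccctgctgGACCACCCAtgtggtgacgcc
In the 90 cores of the deep sites, the base just before the core was A in 43.3% and G in 40.0%, while T stood there in 13.3% and C in 3.33%. In the 317 cores of the other nonpromoter sites, the same position held A in 38.2%, G in 30.3%, T in 29.3% and C in 2.21%. In the 175 cores of promoter sites it held A in 34.9%, G in 41.7%, T in 9.71% and C in 13.7%, so T was low there too. The shares count cores, so a site with several cores counts more than once. The other nonpromoter cores included 118 from 68 sites outside genes beyond 100 kb. These shares are a description and were not tested.

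The deep sites lay 20130 bp to 984 kb from the nearest coding TSS, with a median of 54.5 kb and quartiles of 32.1 and 109 kb. At the boundary, sites just excluded were in *Kidins220* at 19515 bp and *Nfix* at 19735 bp, and the nearest included were in *Fam163b* at 20130 bp, *Slc8b1* at 20234 bp and *Boc* at 20338 bp. The distance limit holds for coding transcripts only. The median distance to the TSS of any annotated transcript was 26.0 kb, and 61 deep sites (9.87%) had one within 5 kb. The farthest site was in *Erbb4*, a neuregulin receptor, at 984 kb, though the TSS of some annotated transcript was 7172 bp away. It was followed by 2 sites in *Gpc5*, a glypican, at 687 and 667 kb, by 1 site in *Wwox*, an oxidoreductase gene at a fragile site, at 583 kb, and by 1 site in *Sorcs3*, a sorting receptor of neurons, at 576 kb. The genome without gaps held 2396 Mb on these chromosomes, and 517 Mb (21.6%) met the positional rule, so the density of deep sites was 1.19 per Mb (95% Poisson interval 1.10 to 1.29).

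Density fell with distance inside genes, from 1.53 sites per Mb (1.28 to 1.81, 137 sites) at 20 to 30 kb to 0.788 (0.608 to 1.00, 65 sites) beyond 200 kb. Outside coding genes it was 1.31 sites per Mb (1.07 to 1.59, 103 sites) at 20 to 30 kb and 0.438 (0.382 to 0.499, 223 sites) beyond 200 kb. From 20 to 200 kb the intervals inside and outside genes overlapped at each distance. Beyond 200 kb they did not. This last class has no upper limit, held 82.4 Mb inside genes and 509 Mb outside, and was not matched for distance.

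**Figure D1:**
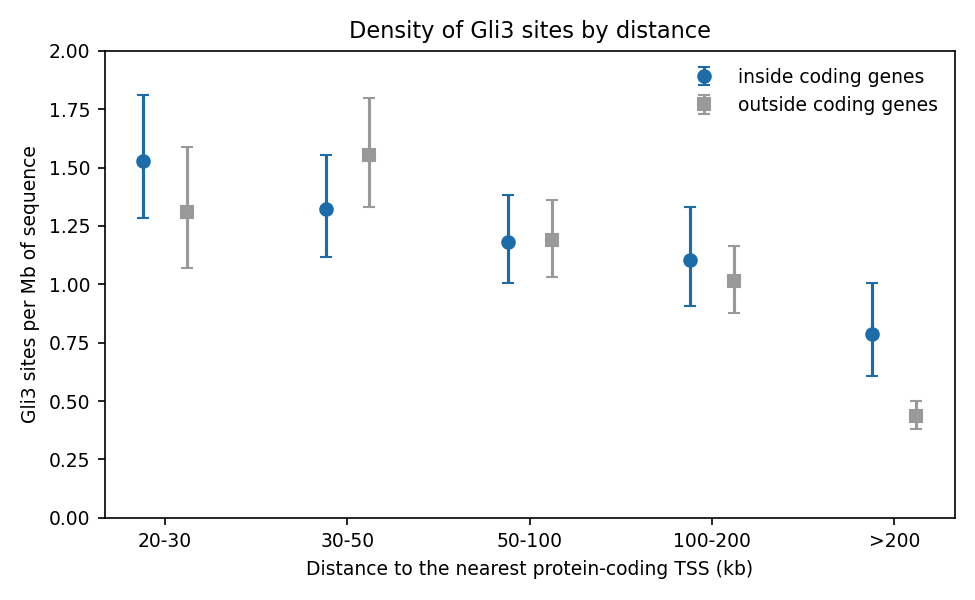
Gli3 sites per Mb of sequence (vertical axis) against distance to the nearest protein-coding TSS in kb (horizontal axis), for sequence inside coding genes (circles) and outside them (squares), with 95% Poisson intervals. The intervals of the 2 series overlap up to 200 kb and separate beyond it, at 0.788 inside and 0.438 outside. The class beyond 200 kb has no upper limit and was not matched for distance.

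Deep sites were 307 to 9272 bp wide, with a median of 1847 bp. The widest were in *Bahcc1* (9272 bp), *Slc25a13* (8748 bp), *Sh3rf3* (7667 bp), *Gse1* (7344 bp) and *Antxr1* (6937 bp). Fewer deep sites than promoter sites were wider than the median of all sites, 2004.5 bp (43.2% against 56.0%, Fisher's exact test, two-sided, p adjusted over 5 classes = 2.36e-07). The share did not pass the test against the other nonpromoter classes, which ranged from 41.7 to 48.8%.

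The base composition of deep sites lay between that of sites near genes and that of sites far from them. Their median GC content was 48.1%, above the 45.7% of their flanks and the 41.8% of all sequence that met the rule. A GC content above the median of all sites, 51.4%, was found in 24.3% of deep sites, 74.4% of promoter sites, 44.0% of sites inside coding genes within 20 kb of a TSS, 39.1% of sites outside genes within 20 kb, 35.2% of those at 20 to 100 kb and 11.1% of those beyond 100 kb. Deep sites differed from each of the 5 classes (Fisher's exact test, largest adjusted p = 8.16e-05), and were richer in GC than the last class only. Their median ratio of observed to expected CpG was 0.223, close to the 0.199 of their flanks and below the 0.580 of promoter sites. Repeats masked in the assembly made up a median of 12.4% of a deep site and 17.6% of a flank, and 7 deep sites (1.13%) consisted mainly of sequence found elsewhere in the assembly.

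Most deep sites were intronic. By the longest coding transcript of the host gene, 132 (21.4%, 18.3 to 24.8%) had their midpoint in the first intron, which held 17.3% of the sequence that met the rule. Counting a first intron of any transcript, the number was 211 (34.1%). The share of the sequence in such introns was not measured, so 34.1% has no background and cannot be set against 17.3%. A second intron held 107 (17.3% against 14.6% of the sequence), a later intron 350 (56.6% against 61.8%) and an exon 19 (3.07% against 3.15%), and 10 lay beyond the ends of that transcript. Where a site lay in more than one coding gene, as 24 did, it was placed in the shortest of them. Coding sequence was touched by 84 deep sites (13.6%) and by 13.3% of the 1236 flanks (odds ratio 1.02, Fisher's exact test, p = 0.885).

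The GLI core was found in 84 of the 618 deep sites, 13.6% (11.1 to 16.5%), beside 12.2% of all 4028 sites. Each site was compared with 2 flanks of its own length, placed 1 site length from either edge, and 19 of these 1236 flanks (1.54%) held the core. The share in sites was 8.84 times that in flanks (odds ratio 10.1, Fisher's exact test, two-sided, p = 4.33e-25). A single core was present in 78 sites, 2 cores in 6 and none in 534. In the central 200 bp the core was found in 13 sites (2.10%) and in 2 flanks (0.162%), a ratio of 13.0 (Fisher's exact test, p = 2.92e-05). Counting matches that differ from the core in at most 1 base, the ratio was 1.80 (Fisher's exact test, p = 4.22e-36).

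Deep sites carried the core more often than promoter sites, of which 9.03% held it (odds ratio 1.58, Fisher's exact test, adjusted p = 0.00792). The difference missed the threshold with 1 mismatch allowed, in the central 200 bp and with a distance limit of 50 kb. Deep sites have lower GC content and are narrower than promoter sites, and the part of either in this difference was not tested. Among the other nonpromoter classes the share was 14.1 to 16.2%, and none differed from deep sites past the threshold by Fisher's exact test (adjusted p = 0.474 to 0.793). Measured per length, deep sites held 66.8 cores per Mb and their flanks 7.05. Promoter sites held 39.0 per Mb. The other nonpromoter classes held more than deep sites, with 85.8 per Mb inside genes near a TSS and 79.6, 72.7 and 136 per Mb outside genes within 20 kb, at 20 to 100 kb and beyond 100 kb. The last of these values came from 118 cores in 68 sites, while the deep sites held 90 cores in 84 sites. These densities were not tested.

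**Figure D2:**
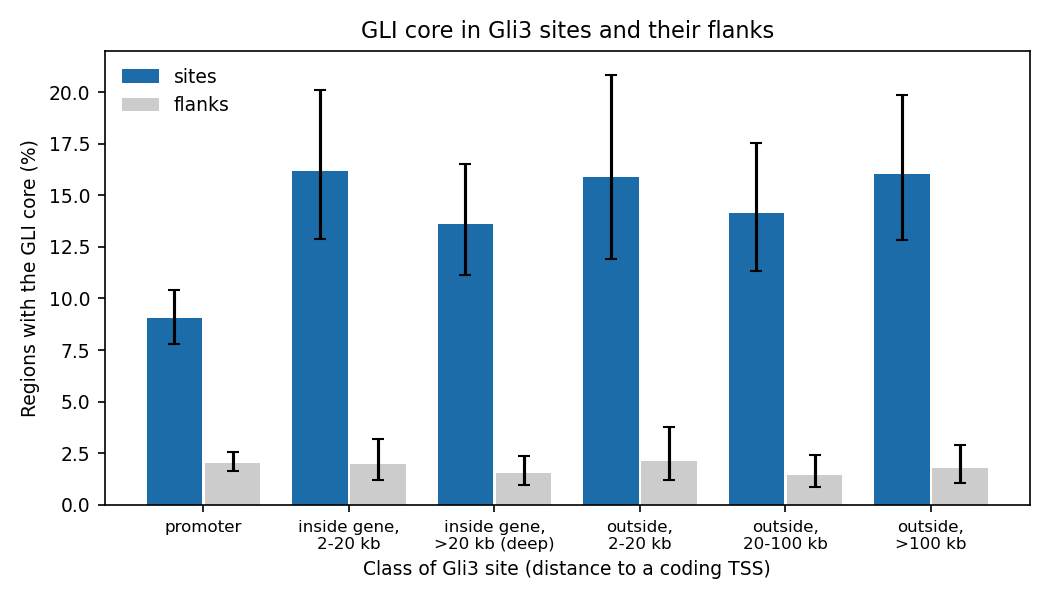
Percentage of regions with the GLI core (vertical axis) in sites (blue) and in their flanks (grey), for the 6 classes of site by position (horizontal axis), with 95% Wilson intervals. Deep sites stand at 13.6% against 1.54% in their flanks, and promoter sites are the lowest of the 6 classes at 9.03%.

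The cores gathered near the middle of the sites. Of the 90 cores, 47 (52.2%, 42.0 to 62.2%) were in the middle of 3 equal parts of the site (exact binomial test against an even spread, two-sided, p = 2.90e-04), and the median distance from the centre was 318 bp. No strand preference relative to the host gene was detected in these 90 cores, with 43 (47.8%, 37.8 to 58.0%) on the gene's own strand (exact binomial test, p = 0.752). With 1 mismatch allowed, 305 of 671 matches (45.5%, 41.7 to 49.2%) were on that strand (exact binomial test, p = 0.0205).

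Within the 618 deep sites, the share with a core was 16.5% in sites wider than their median of 1847 bp and 10.7% in the narrower ones (Fisher's exact test, p = 0.0455, adjusted over 7 properties p = 0.319). It was 15.9% in the 176 sites more than 100 kb from a coding TSS and 12.7% in the others (Fisher's exact test, adjusted p = 0.524). In first introns it was 13.6%, as in the rest (Fisher's exact test, adjusted p = 1). No property passed the adjusted threshold, including GC content, contact with coding sequence, a promoter site at the host gene and a second deep site in the host gene.

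The core with a single letter changed was searched in the same way. Positions are counted from 1 at the first base of GACCACCCA. Of 27 single substitutions, 4 were more frequent in deep sites than in flanks after adjustment, and none was less frequent. The substitution A2G, which gives GGCCACCCA, stood in 84 sites, as many as the core itself, and in 3.07% of flanks (odds ratio 4.96, Fisher's exact test, adjusted p = 3.84e-15). In the central 200 bp it was found in 20 sites (3.24%), more than the 13 with the core, and in 2 flanks (Fisher's exact test, adjusted p = 6.91e-07). By the same exact test, the other 3 were A2C in 10.7% of sites against 4.13% of flanks (adjusted p = 1.90e-06), C7A in 9.55% against 4.21% (adjusted p = 9.13e-05) and A9T in 4.21% against 1.29% (adjusted p = 0.00118). With the core or any of these 4 changes counted, 277 deep sites (44.8%, 40.9 to 48.8%) and 12.5% of flanks had a match. The 4 changes were picked on these sites, so the last pair is a description. In the other nonpromoter sites A2G stood in 11.3% (odds ratio 1.23 for deep sites, Fisher's exact test, p = 0.144). The changes were not particular to deep sites. Against their own flanks, 10 of the 27 substitutions were more frequent in the other nonpromoter sites and 10 in promoter sites after adjustment. All 4 changes named here were among them in both classes.

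Words of 8 bases, were compared in the same way, without a motif given. Of 32896 words, 34 (0.103%) were more frequent in deep sites than in flanks and 25 (0.076%) less frequent at an adjusted p under 0.05. The first was GACCACCC, in 20.6% of sites and 4.45% of flanks (Fisher's exact test, adjusted p = 1.19e-21), and the next was GCCACCCA, in 28.0% and 11.7% (adjusted p = 1.69e-13). In the central 200 bp GCCACCCA was first, in 6.96% of sites and 0.647% of flanks (Fisher's exact test, adjusted p = 1.19e-09), and GACCACCC was in 2.91% and 0.324% (adjusted p = 0.0299) at rank 4. The words that were rarer in sites included ATATAAAT, in 5.99% of sites and 15.2% of flanks (Fisher's exact test, adjusted p = 9.41e-06). Flanks had lower GC content, as given above, and its part in this was not tested. Against the other nonpromoter sites, 0 words (0%) passed, with 1991 at an unadjusted p under 0.05 and a smallest adjusted p of 0.125 by Fisher's exact test.

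Short motifs of other transcription factor families were searched on both strands as exact letters. Besides the GLI core, 3 of the 20 motifs were more frequent in deep sites than in flanks. The short nuclear factor I (NFI) motif TTGGCA, bound by factors that act in gliogenesis, stood in 77.8% of sites and 62.8% of flanks (odds ratio 2.08, Fisher's exact test, adjusted p = 3.68e-10). By the same exact test, the homeodomain motif TAATTA stood in 49.0% and 39.9% (odds ratio 1.45, adjusted p = 0.00126), and the E-box CAGCTG of basic helix-loop-helix proteins in 71.5% and 63.2% (odds ratio 1.46, adjusted p = 0.00168). In the central 200 bp, TAATTA missed the threshold (odds ratio 1.64, Fisher's exact test, adjusted p = 0.0601). Against the other nonpromoter sites, TTGGCA was more frequent in deep sites (77.8% against 71.5%), as was TAATTA (49.0% against 41.7%), while the SP motif GGGCGGGG was less frequent (11.7% against 17.0%), each with an adjusted p of 0.0176 by Fisher's exact test. None of these passed the exact test in the central 200 bp. None passed within classes of GC content and width, where the Mantel-Haenszel odds ratios were 1.39 for TTGGCA, 1.28 for TAATTA and 0.693 for GGGCGGGG.

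Of the 7174 coding genes with sequence that met the rule, 467 (6.51%) held a deep site. The share rose with gene length, from 2.43% of genes under 100 kb to 10.9% at 100 to 300 kb and 28.3% over 300 kb. A single deep site was found in 360 genes and more than 1 in 107 genes, which together held 265 of the sites (42.9%). By the annotation, 11 genes held 4 or more deep sites. Of these, *Gm20388* and *Fgfr2* have gene models that run across their neighbours, 4435 and 2961 kb long. Of the 17 sites in *Gm20388*, 16 lay in another coding gene too, and the 4 in the model of the receptor gene *Fgfr2* were all inside *Htra1*, *Fam53b* or *Ctbp2*.

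The other 9 genes held 4 to 15 sites each. *Gse1*, which encodes a coiled-coil protein of a corepressor complex, held 15 deep sites, 1 of them with a core, or 6.49 per 100 kb of sequence that met the rule. *Msi2*, which encodes an RNA-binding protein of stem cells, held 9 sites of 515 to 4665 bp without a core, all in introns 5 to 9 of its 13, at 67.3 to 189 kb from a coding TSS. *Macrod1*, an ADP-ribose hydrolase gene, held 5 sites, all in intron 3 and 1384 to 6883 bp wide. *Ephb2*, a receptor for ephrins in axon guidance, held 5 sites, 3 of them in intron 3. *Wwox* held 5, of which 4 were in intron 8 at 497 to 583 kb, and 1 of these had a core. Each of the genes *Cdh4* (a cadherin), *Kirrel3* (a synaptic adhesion protein), *Slit1* (a repellent ligand of axons) and *Tbc1d22a* held 4 sites without a core.

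**Figure D3:**
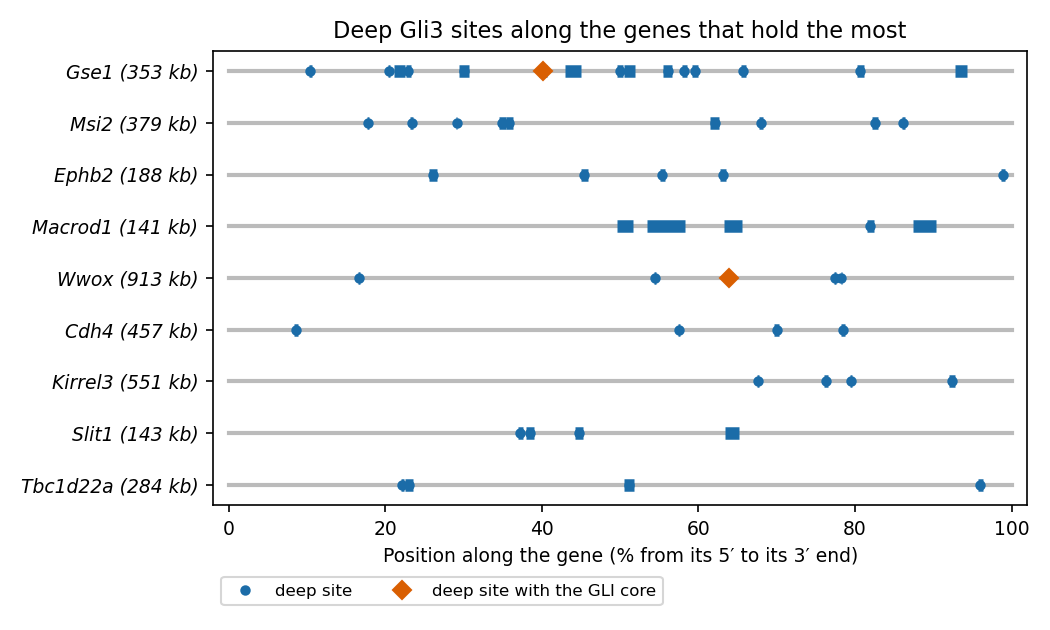
Deep Gli3 sites along the 9 host genes with 4 or more of them, leaving out 2 gene models that run across their neighbours. The horizontal axis is the position from the 5′ to the 3′ end of the gene in percent, bars show site width to scale, circles are sites without the GLI core and diamonds sites with it. *Gse1* and *Wwox* each have 1 site with a core, and the sites of *Macrod1* lie in the later part of the gene.

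Relative to the length that met the rule, *Macrod1* held 7.25 sites per 100 kb, *Gse1* 6.49 and *Boc*, which encodes a co-receptor of Shh, 5.57. *Tenm2*, which encodes a teneurin adhesion protein, was low among the genes with 3 or more sites, with 3 sites at 0.262 per 100 kb.

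The genes of 7 lists are described by counts beside the 6.51% of all 7174 eligible genes. The genes of every list were longer than that background, whose median length was 66.0 kb. In the Hedgehog pathway, 4 of 19 eligible genes (21.1%, 8.51 to 43.3%) held 6 deep sites, the pathway's receptor gene *Ptch1*, the co-receptor gene *Boc* with 3, the transcription factor gene *Gli2* and *Sufu*, whose protein binds GLI factors. The site in *Gli2* was 1373 bp wide and 142 kb from a coding TSS in intron 2. The site in *Ptch1* was 1881 bp wide in intron 17, 27.6 kb from a coding TSS, and the site in *Sufu* was 2176 bp wide in intron 2 at 25.2 kb. The 3 sites in *Boc* were 455, 2942 and 1447 bp wide at 56.3, 26.7 and 20.3 kb. None of the 6 held the exact core, and 7 matches with a single mismatch were found in 4 of them, at *Ptch1*, at *Sufu* and at the 455 and 2942 bp sites of *Boc*. Those with the enriched substitutions A2G and A2C are printed with the match in capitals.
Boc, A2G (chr16:44502611-44502643, plus strand): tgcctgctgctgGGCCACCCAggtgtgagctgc
Sufu, A2C (chr19:46421423-46421455, minus strand): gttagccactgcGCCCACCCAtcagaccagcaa

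Of 78 genes for neural transcription factors, 25 (32.1%, 22.7 to 43.0%) held 33 deep sites, at 1.94 sites per Mb. *Prdm16*, which acts in radial glial cells, held 3. *Nfia*, a gliogenic NFI factor, *Zbtb20*, *Npas3*, *Zfhx3* and *Ldb2* held 2 each. Cores were found in 4 of the 25 host genes, *Nfia*, *Meis2*, *Pbx3* and *Camta1*, printed above, beside 85 of all 467 host genes. Of 42 genes for chromatin proteins and corepressors, 7 (16.7%, 8.32 to 30.6%) held 25 sites, at 6.92 per Mb, and without *Gse1* 6 of 41 genes held 10 sites at 2.96 per Mb. *Jarid2*, a Polycomb-associated protein gene, held 3, and *Dnmt3a*, a DNA methyltransferase gene, held 1 site of 4304 bp with a core in intron 1.

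Axon guidance genes held deep sites in 15 of 47 (31.9%, 20.4 to 46.2%), 29 sites at 2.41 per Mb. After *Ephb2* and *Slit1* came *Sema5b*, a semaphorin gene, with 3 sites in its first and second introns. Cores were found in 5 of these 15 host genes, beside the 85 of 467 over all hosts, among them the netrin gene *Ntn1* and *Ntng1*, whose protein is a membrane-bound relative of netrins. Genes for synaptic adhesion proteins and cadherins held deep sites in 15 of 58 (25.9%, 16.3 to 38.4%). Their median length was 612 kb, and their density of 0.823 sites per Mb was below the 1.19 per Mb of all eligible sequence. Glutamate and GABA receptor genes were similar, with 8 hosts of 30 (26.7%, 14.2 to 44.4%) and 0.883 sites per Mb. *Gabbr2*, a subunit of the GABA B receptor, held 2 sites of 3781 and 4388 bp, the narrower of them with a core. Of the signalling genes, 8 of 53 (15.1%, 7.85 to 27.1%) held 12 sites, and without the long *Fgfr2* model 7 of 52 held 8 sites at 1.12 per Mb.

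**Figure D4:**
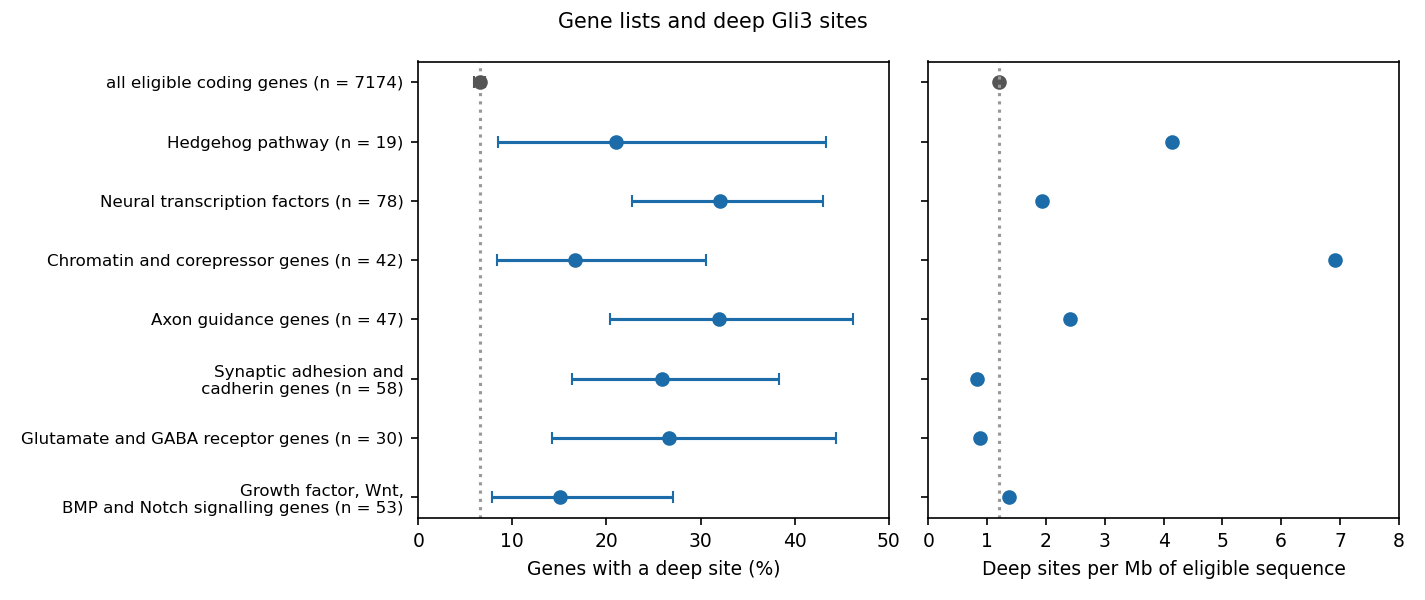
Left, percentage of eligible genes with a deep site for all coding genes and 7 gene lists, with 95% Wilson intervals. Right, deep sites per Mb of sequence that met the rule. Dotted lines mark all eligible coding genes, at 6.51% and 1.19 per Mb. The receptor and adhesion lists lie right of the line for genes and left of it for density.

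Host genes had a Gli3 site at one of their own promoters more often than other eligible genes. A site within 2 kb of a TSS of the gene was found for 101 of 467 host genes (21.6%, 18.1 to 25.6%) and for 759 of 6707 others (11.3%, 10.6 to 12.1%). Within length classes the shares were 19.7% and 10.5% under 100 kb, 22.3% and 13.4% from 100 to 300 kb, and 22.2% and 12.1% over 300 kb, and the intervals did not overlap in any class. With a promoter of 1 kb on either side, the intervals overlapped in all 3 length classes, under 100 kb (7.26 to 19.1% for hosts and 8.74 to 10.4% for others), from 100 to 300 kb (13.1 to 23.7% and 10.0 to 13.2%) and over 300 kb (10.2 to 21.5% and 7.21 to 13.2%). Another Gli3 site of any class lay within 20 kb of 122 deep sites (19.7%, 16.8 to 23.1%). For sites inside genes near a TSS this share was 32.6% (28.2 to 37.3%) and for sites outside genes beyond 100 kb it was 10.8% (8.23 to 14.2%). The share was 16.8% (15.2 to 18.6%) for promoter sites. Outside genes it was 29.8% (24.6 to 35.7%) within 20 kb and 23.2% (19.6 to 27.1%) at 20 to 100 kb. The intervals of promoter sites and of sites at 20 to 100 kb overlapped that of deep sites.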

How the data were processed

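Gli3 ChIP-seq was performed on 3 wild-type E15 cortex samples with 3 input samples. Per the file header, the authors sequenced paired ends, filtered repeats and mapped with bowtie2 to mm10. The submitters' processing notes also name SAMtools and MACS2, and the settings and versions are not given in the sources used here. The deposited file is the optimal IDR peak list, with chromosome, start, end and name. The number of sites in it differs from the number in the study's text, and the list was used as deposited. Depth is unknown, and the number and width of sites depend on the authors' settings.

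Midpoints were classed against GENCODE M21. Sequence came from the RefSeq GRCm38 assembly, in which 98.9% of 179647 annotated introns had canonical splice sites. Motifs were matched exactly on both strands, a region counting once. Fisher's exact test, two-sided, was used for shares, with p-values adjusted by Benjamini and Hochberg (Python 3.11.15, scipy 1.17.1), after the functions were tested on simulated sequences. Genes were named if they held the most deep sites (10, with ties), a site with 2 or more cores, one of the 5 farthest or 5 widest sites, or were on a list. The genes densest in sites, those at the distance limit, those within the model of *Fgfr2* and the substitutions of the core were chosen after their values were seen. Members and lists were chosen with earlier results of these data known. Some items that these rules cover, and the sequence of 1 chromosome, are not reported here.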

Additional observations from a re-analysis of the deposited data

How the results depend on the processing

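No paired analysis was possible because the authors joined the samples into 1 list, for which no replicate could be left out either. The excess of the GLI core over flanks kept its direction and its side of the threshold in all 8 alternatives run, with ratios of 1.80 to 13.0. With 50 kb in place of 20 kb as the limit, 334 sites remained. With the TSSs of every transcript of coding genes counted, 495 remained. Against promoter sites, the odds ratio for the core was 1.86 in the central 200 bp (adjusted p = 0.542), 1.25 with 1 mismatch allowed (0.0619) and 1.57 at 50 kb (0.0779), none past the threshold by Fisher's exact test. With 1 mismatch allowed, the odds ratio against sites outside genes at 20 to 100 kb changed from 0.955 to 1.40 (adjusted p = 0.0448), and the share of matches on the host gene's strand was 45.5% of 671 (exact binomial test, p = 0.0205). At 50 kb, deep sites were by Fisher's exact test narrower than sites near a TSS (odds ratio 0.667, adjusted p = 0.00792) and than sites outside genes within 20 kb (0.704, adjusted p = 0.0234). In the central 200 bp, 5 words passed against flanks and 0 motifs passed against other nonpromoter sites by Fisher's exact test, where the EGR motif against flanks gave no value. Counting a first intron of any transcript gave 34.1% of sites, for which the share of eligible sequence was not measured. With at least 10 kb of eligible sequence, 8.78% of genes were hosts, and with a promoter of 1 kb on either side the shares with a promoter site were 15.4% for hosts and 10.0% for others. The cause of these changes was not tested. The comparisons without the 2 longest gene models and within classes of GC content and width were added after seeing the data. Without replicate values, no difference could be set against the variation between embryos.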
